A study of Saccharomyces cerevisiae with 9 samples.

Results

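In the yeast Saccharomyces cerevisiae, transcript levels of 2 strains growing on glucose were set against a common pool that also held RNA of cells growing on ethanol. The comparison used 6 of the 9 arrays of the series, 3 of the laboratory strain BY4716 and 3 of RM11-1a, whose ancestor was isolated in a vineyard, and it took every array that the labels give to a parental strain. Both parents grew in yeast nitrogen base with 2% glucose, leucine at 100 mg/L, lysine at 100 mg/L and uracil at 20 mg/L. Their RNA was labelled with Cy5 on every array. The Cy3 channel always held the pool, made of RNA from both strains on glucose and both strains on ethanol. The ethanol level of the pool, 1%, is stated only in the labels of the other 3 arrays, and the proportions of the pool are not given in the sources used here. The other 3 arrays, of strains with an exchanged allele, were not used in any test below.

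Baker's yeast ferments glucose to ethanol even when oxygen is present, and while glucose lasts it represses the genes for using other carbon sources. When it has to live on ethanol, it oxidises the alcohol to acetate, activates acetate to acetyl-CoA, and runs the glyoxylate cycle and gluconeogenesis to build sugars from carbon units that the citric acid cycle alone would burn. The kinase Snf1 and the activators Adr1, Cat8, Sip4 and Hap4 drive that programme, and the repressor Mig1 holds it down on glucose.

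Each value is a log2 ratio of the strain over the pool, so a gene below 0 was less abundant on glucose than in the pool. A ratio of 0 stands for the typical gene, since each array was normalized to its own middle by loess. The average of both strain means was tested against 0 with limma, and a gene was called when its Benjamini-Hochberg adjusted p over 5777 genes was under 0.05. A gene was counted as low or high in both strains only when each strain passed on its own with the same sign. The pool limits what can be read from a ratio. In a pool of 4 equal RNAs, a gene read only on glucose would sit at a log2 ratio of 1, so genes that glucose favours had little room to rise, whereas a gene 10-fold higher on ethanol would sit at -2.46 and a gene 100-fold higher at -5.66.

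No array had its dyes swapped, so a gene's dye bias and its difference from the pool cannot be told apart. The pool was the reference on every array and no ethanol culture was hybridised on its own, which leaves the spread of the pool and of the ethanol cultures out of every error given here. The labels do not say whether arrays of 1 strain had a culture each, so the p-values cover the differences among these arrays and some or all of that spread may be technical. Signal was well above background for 89.5% to 91.7% of genes in the channel of the strain and for 90.9% to 91.9% in that of the pool, and precision is limited by how many arrays there are. RNA was taken from whole cultures, so fewer cells with a transcript and less of it per cell cannot be told apart.

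RM11-1a array number 7 stood apart for genes of the mitochondrial ribosome, of mitochondrial protein import and of respiration, and for stress and storage genes. It gave the lowest RM11-1a value for 71 of 73 mitochondrial ribosomal protein genes and 39 of 41 genes of oxidative phosphorylation, against 27.5% of all genes. The same held for 32 of 40 stress genes, 24 of 30 genes of protein import and 14 of 21 of trehalose and glycogen. It held for only 1 of 8 genes of the mitochondrial genome. Medians of the lists most affected are therefore also given without this array.

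Of the 5777 genes, 2406 (41.6%) had an average below 0 and 2231 (38.6%) an average above 0. Counted strain by strain, 1289 genes (22.3%) were low in both strains and 1140 genes (19.7%) were high in both. Most of these differences were small, since 122 genes (2.11%) were at least 2-fold low in both strains and 20 genes (0.346%) at least 1.5-fold high in both. The fold counts depend on the processing: the deposited scanner ratios gave 186 and 101, and median centring gave 98 and 263. By the loess values HXT3 and AHP1 were the only genes at least 2-fold high in both, 2 against 122 on the low side. They passed the log2 ratio of 1 that a pool of equal parts would allow a gene equal in both strains. Averages ran from -6.78 to 1.21. On single arrays, between 197 and 327 genes lay below -1 and between 19 and 35 above 1. With each array centred on its median in place of loess, the split changed to 1324 genes low in both and 1791 high in both.

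**Figure D1:**
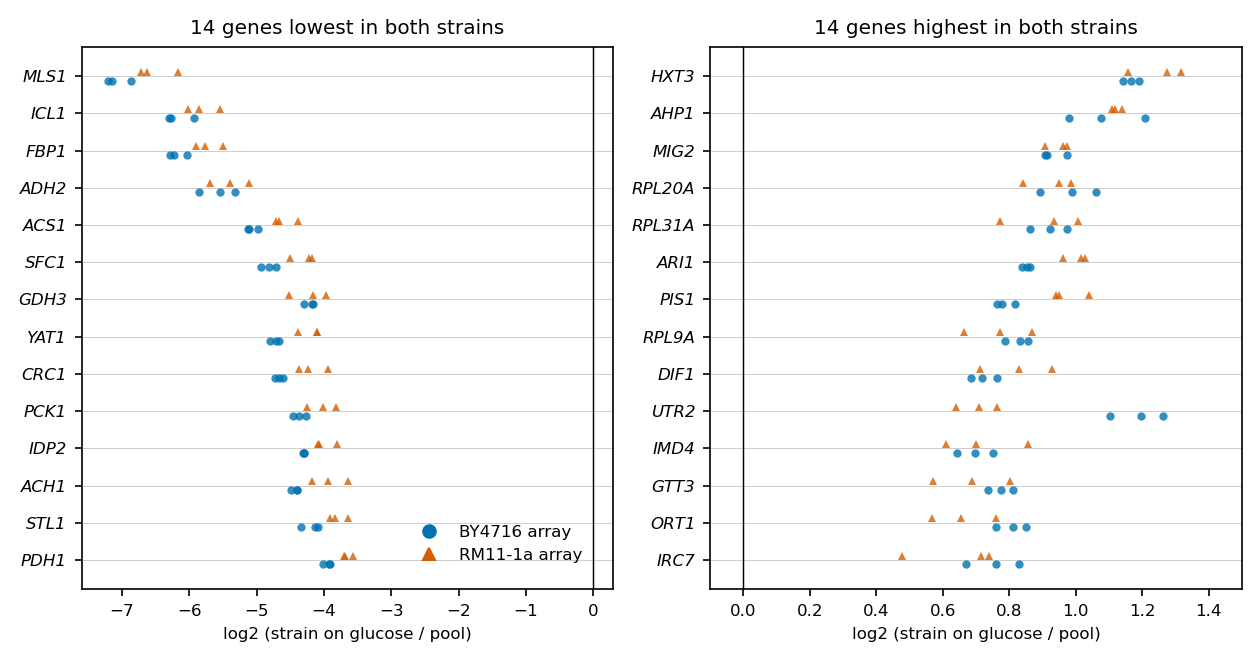
Log2 ratio of strain over pool on each of 6 arrays for the 14 genes lowest in both strains (left) and the 14 highest in both (right), with circles for BY4716 and triangles for RM11-1a. The lowest genes reach -7.20 on an array of BY4716 and the highest stop at 1.32 on an array of RM11-1a.

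The lowest genes were those of the glyoxylate cycle and of gluconeogenesis. All 9 genes of that list were at least 2-fold low in both strains, with a median average of -4.20 against -0.01 for all genes. MLS1, which encodes malate synthase, was at -7.20, -7.14 and -6.87 on the 3 arrays of BY4716 and at -6.62, -6.16 and -6.71 on those of RM11-1a. Every array put it at the bottom of the range, and its average was -6.78 ± 0.07 (SE, n = 6; adjusted p = 4.06e-10). That is a 110.2-fold lower level than in the pool by these values, which carry an offset. The average was -7.40 in the deposited ratios and -7.39 with an offset of 0, a shift that the SE does not cover. ICL1, the isocitrate lyase that shares the cycle with it, stood at -6.28, -6.30 and -5.93 in BY4716 and at -5.86, -5.54 and -6.02 in RM11-1a. FBP1, the phosphatase that makes gluconeogenesis possible past phosphofructokinase, stood at -6.22, -6.28 and -6.04 in BY4716 and at -5.77, -5.49 and -5.90 in RM11-1a. By these values both were about as far below the pool as each other, with averages of -5.99 ± 0.07 and -5.95 ± 0.05 (SE, n = 6). In the deposited ratios FBP1 was the lower, at -6.39 against -6.08 for ICL1.

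The rest of the list followed in the same direction. PCK1, the carboxykinase that opens gluconeogenesis from oxaloacetate, averaged -4.20 ± 0.05 (SE, n = 6), and SFC1, the mitochondrial carrier that exchanges succinate for fumarate, -4.56 ± 0.05. IDP2, the cytosolic isocitrate dehydrogenase that makes NADPH, averaged -4.15 ± 0.04. CIT2, the peroxisomal citrate synthase, averaged -3.32, MDH2, the cytosolic malate dehydrogenase, -2.88, and AGX1, an aminotransferase that uses glyoxylate, -2.90. CIT2 was the only one of the 9 lower in RM11-1a than in BY4716, at -3.72 ± 0.09 against -2.92 ± 0.08 (SD, n = 3 each; adjusted p of the difference 1.95e-05).

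All 15 genes for the use of ethanol, acetate, lactate and glycerol had averages below 0, with a median of -2.28, and 13 were low in both strains. ADH2, the alcohol dehydrogenase that takes ethanol back to acetaldehyde, was at -5.54, -5.85 and -5.31 in BY4716 and at -5.40, -5.12 and -5.69 in RM11-1a. The arrays of both strains overlapped, and the strains did not differ by the test (0.17 ± 0.17, SE, RM11-1a minus BY4716; adjusted p = 0.409). Its average of -5.48 ± 0.08 (SE, n = 6) is 44.8-fold below the pool. ACS1, which activates acetate to acetyl-CoA, averaged -4.83 ± 0.04, a 28.5-fold lower level, and ACH1, a mitochondrial enzyme that moves CoA onto acetate, -4.18. Of the permeases, STL1 for glycerol averaged -3.99, JEN1 for lactate and pyruvate -3.54 and ADY2 for acetate -3.45. ALD4, the mitochondrial aldehyde dehydrogenase, averaged -2.35, and the glycerol kinase GUT1 -2.01. The 2 genes of the list that were not low in both were CYB2, a lactate dehydrogenase of the intermembrane space, and ALD3, a cytosolic aldehyde dehydrogenase. CYB2 was at -1.98 in BY4716 and at 0.34 in RM11-1a, and ALD3 at -2.0 and 0.58.

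Acetyl units reach mitochondria partly as acetylcarnitine, and all 5 genes of that shuttle were low in both strains, with a median average of -3.40. YAT1, a carnitine acetyltransferase on the outer mitochondrial surface, was between -4.81 and -4.67 in BY4716 and between -4.38 and -4.10 in RM11-1a. The mitochondrial carnitine carrier CRC1 averaged -4.43, and the acetyltransferases CAT2 and YAT2 -3.40 and -3.07. Of 38 genes of the peroxisome and of fatty acid oxidation, 29 had averages below 0 and 4 above, but the median was only -0.24. The enzymes lay lowest. The peroxisomal catalase CTA1 averaged -2.83, the thiolase POT1 -2.0, FOX2, which carries out the hydratase and dehydrogenase steps, -1.53, and the acyl-CoA oxidase POX1 -1.31. The import factor PEX14 (0.17) and the isomerase DCI1 (0.08) were slightly above the pool. POT1 and POX1 were well above background on only 1 of 3 arrays of BY4716.

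Of the 17 genes of the citric acid cycle, 16 had averages below 0, 15 were at least 2-fold low in both strains, and none was above 0. The median average was -1.61, from a median of -2.10 in BY4716 and -1.24 in RM11-1a. CIT1, the mitochondrial citrate synthase, was at -2.73, -2.84 and -2.88 in BY4716 and at -2.48, -2.05 and -2.16 in RM11-1a, so the strains did not overlap. CIT3, a second mitochondrial citrate synthase that also acts on propionyl-CoA, averaged -3.37 ± 0.03 (SE, n = 6), and PDH1, the dehydratase of the next step on propionate, -3.80 ± 0.03. SDH1, the flavoprotein of succinate dehydrogenase, averaged -2.26 and SDH2, its iron-sulphur subunit, -2.0. Array 7 was the lowest RM11-1a array for 15 of the 17 genes.

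The respiratory chain was lower than the pool too, but far more so in BY4716. Of 41 genes of oxidative phosphorylation, 39 had averages below 0, 2 were above 0 and 27 were low in both strains. The median was -1.58 in BY4716 and -0.29 in RM11-1a. On single arrays the medians ran from -1.63 to -1.54 in BY4716 and from -0.46 (array 7) to -0.18 in RM11-1a. Only NDE2, an external NADH dehydrogenase, and COB, the mitochondrially encoded cytochrome b, were at least 2-fold low in both. ATP1, the alpha subunit of the ATP synthase, was at -2.25, -2.19 and -2.20 in BY4716 and at -0.95, -0.58 and -0.81 in RM11-1a. Those arrays did not overlap, and RM11-1a was higher by 1.43 (adjusted p = 5.97e-06). CYC1, the main cytochrome c, was at -2.43 ± 0.01 in BY4716 and at 0.21 ± 0.41 (SD, n = 3 each) in RM11-1a, where array 7 lay at -0.25 and the other 2 at 0.49 and 0.41. COX5B, the subunit of cytochrome oxidase that yeast favours when oxygen is scarce, went the other way, at 1.1 ± 0.13 in BY4716 and -0.34 ± 0.11 in RM11-1a. CYC7, the minor cytochrome c, averaged 0.30, and with median centring this no longer passed.

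**Figure D2:**
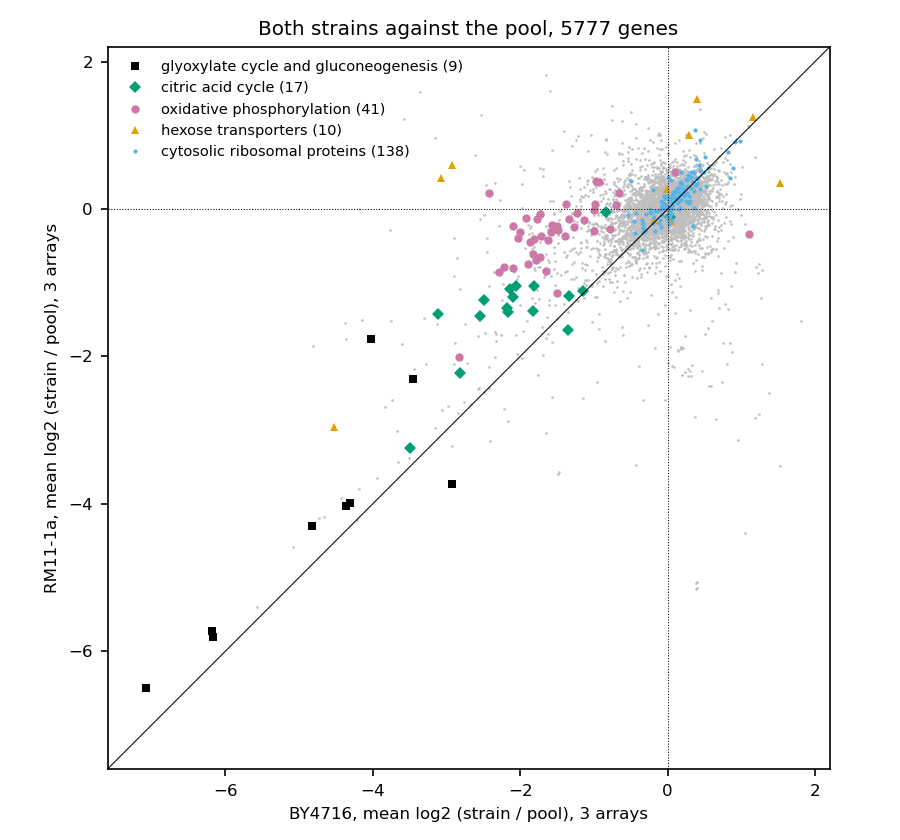
Mean log2 ratio over the pool in BY4716 (x axis) and RM11-1a (y axis), 3 arrays each, for 5777 genes in grey with 5 gene lists marked and the number of genes tested in brackets. Genes of the glyoxylate cycle lie near the diagonal far below 0, whereas genes of oxidative phosphorylation lie above it, with medians of -1.58 in BY4716 and -0.29 in RM11-1a.

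The activators CAT8, ADR1, SIP4 and HAP4 were themselves below the pool, but the wider list of regulators moved little. Of 38 sensors and regulators of carbon use, 26 (68.4%) had averages below 0 and 9 (23.7%) above, against 41.6% and 38.6% of all genes. The median was only -0.23. In both strains 19 were low, against 22.3% of all genes, and 3 were at least 2-fold low. CAT8, an activator of gluconeogenic genes, was at -2.46, -2.43 and -2.53 in BY4716 and at -1.87, -1.50 and -1.66 in RM11-1a. ADR1, an activator of ADH2 and of peroxisomal genes, averaged -1.95 ± 0.03 (SE, n = 6), SIP4, which binds the same promoter elements as CAT8, -1.89 ± 0.04 and HAP4, the activating subunit of the respiratory regulator, -1.47 ± 0.04. All of them were nearer to the pool in RM11-1a, by 1.73 for ADR1 and 1.23 for HAP4 (adjusted p = 1.23e-07 and 6.7e-06). SIP4 was well above background on only 1 array of BY4716.

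Repressors and sensors of glucose were found on both sides of the pool. MIG2, a repressor that glucose induces, was at 0.91, 0.91 and 0.97 in BY4716 and at 0.96, 0.91 and 0.97 in RM11-1a. The strains overlapped fully, and the average of 0.94 ± 0.02 (SE, n = 6) lay close to the 1 that a pool of equal parts would give for a gene read on glucose alone. STD1, a partner of the repressor Rgt1, averaged 0.53 and MIG1 0.27. SNF3, the sensor of low glucose, averaged -0.73, whereas RGT2, the sensor of high glucose, was at 0.07 ± 0.02. MTH1, the other partner of Rgt1, was at -0.50 in BY4716 and 0.16 in RM11-1a.

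Of 17 hexose transporter genes, 10 passed the filter on dim probes, 4 of them with averages below 0 and 5 above. HXT3, a low-affinity carrier used at high glucose, was the highest gene of all, at 1.17, 1.14 and 1.19 in BY4716 and at 1.27, 1.32 and 1.16 in RM11-1a. Its average of 1.21 ± 0.02 (SE, n = 6) is 2.31-fold above the pool, and the strains overlapped. HXT5, a carrier of slow-growing and starved cells, was at -4.61, -4.53 and -4.42 in BY4716 and at -3.19, -2.65 and -3.03 in RM11-1a. The other carriers were split between the strains. HXT1, the carrier with the lowest affinity, was at 1.53 ± 0.07 in BY4716 and 0.35 ± 0.08 in RM11-1a, while HXT2, a carrier induced at low glucose, was at 0.41 ± 0.04 and 1.49 ± 0.22 (SD, n = 3 each). HXT4 was at 0.29 in BY4716 and 1.01 in RM11-1a. HXT6 and HXT7, high-affinity carriers of nearly identical sequence whose probes may share signal, were at -3.08 and -2.93 in BY4716 and at 0.42 and 0.60 in RM11-1a. Their averages, -1.33 and -1.17, therefore describe neither strain.

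Among the kinases that trap the sugar in the cell, HXK2, the main hexokinase on glucose, was at 0.72 ± 0.08 in BY4716 and -0.28 ± 0.19 in RM11-1a (SD, n = 3 each). HXK1 was at -1.33 ± 0.31 and 0.38 ± 0.21. GLK1, the glucokinase, was low in both, at -1.52 and -1.04. SUC2, the invertase that glucose represses, was at 0.29 in BY4716 and -0.56 in RM11-1a, with an average of only -0.14 ± 0.04 (SE, n = 6).

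**Figure D3:**
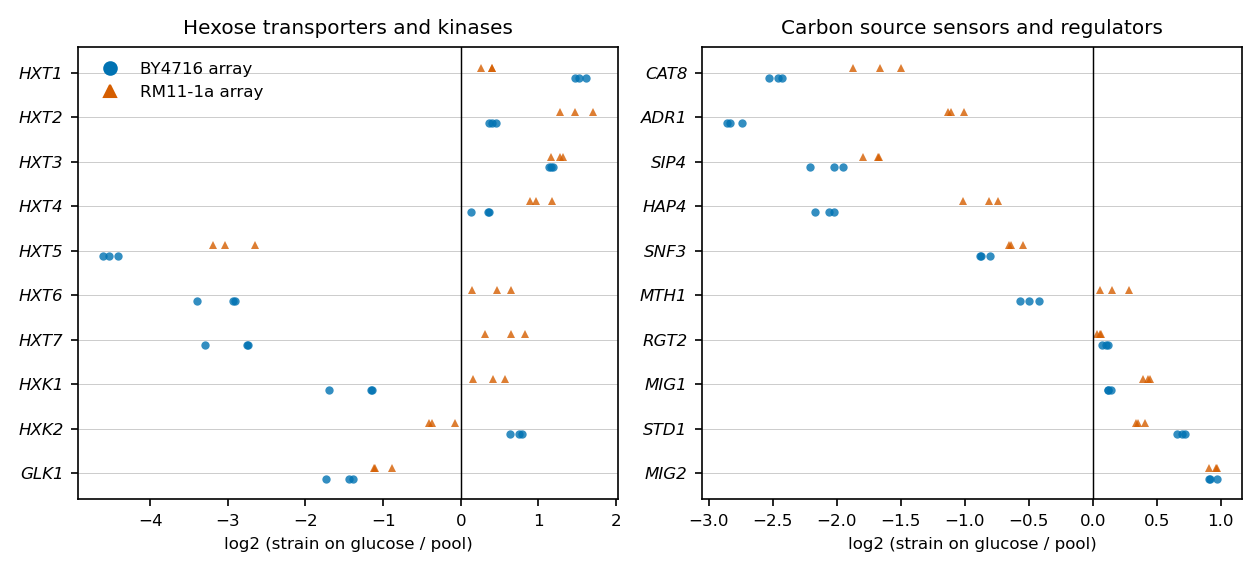
Log2 ratio of strain over pool on each of 6 arrays for hexose transporters and kinases (left) and for sensors and regulators of carbon use (right), with circles for BY4716 and triangles for RM11-1a. HXT3, GLK1, MIG2 and CAT8 keep one side of 0 in both strains, whereas HXT6, HXT7, HXK1 and HXK2 have the strains on opposite sides.

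The glycolytic and fermentative genes showed no common shift. Of 30, 15 had averages above 0 and 10 below, with a median of 0.10. ENO2, the enolase gene favoured on glucose, averaged 0.53 ± 0.02 (SE, n = 6), GPP1, a glycerol phosphatase, 0.62 and TPI1, the triose isomerase, 0.40. PDC1, the main pyruvate decarboxylase, was at -0.09 ± 0.05 and did not pass (adjusted p = 0.152), and TDH3, the main glyceraldehyde phosphate dehydrogenase, was at -0.27 ± 0.03. The normalization decides these values. With median centring the list's median was 0.70, PDC1 stood at 1.05 and TDH3 at 0.43, so no direction can be given for these genes. PDC6, a minor pyruvate decarboxylase, stayed far below, at -3.06 ± 0.04 by loess.

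The lists for non-fermentable carbon use, respiration and peroxisomes together held 125 of the genes tested (2.16%) and 45 of the 122 at least 2-fold low in both strains (36.9%). None of the 20 genes at least 1.5-fold high in both was on them, too few genes for that share to be told from the share of all genes. AHP1, a thiol peroxidase, was at 1.21, 1.08 and 0.98 in BY4716 and at 1.12, 1.11 and 1.14 in RM11-1a. ARI1, an NADPH-dependent aldehyde reductase, averaged 0.93 ± 0.02 (SE, n = 6) and PIS1, the phosphatidylinositol synthase, 0.88 ± 0.02. UTR2, a cell wall transglycosylase, was at 1.19 in BY4716 and 0.70 in RM11-1a. Also among the 14 highest were the ribosomal protein genes RPL20A (0.95), RPL31A (0.91) and RPL9A (0.80), IMD4, which encodes an IMP dehydrogenase of guanine nucleotide synthesis (0.71), ORT1, the mitochondrial ornithine carrier (0.73), and DIF1, a factor that controls where ribonucleotide reductase subunits are held (0.77). GTT3 averaged 0.73 and IRC7, a beta-lyase of cysteine conjugates, 0.70.

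Genes of ribosomes, ribosome assembly and RNA polymerases I and III leaned upward by small amounts on the average. Assembly and polymerase genes did so mainly in BY4716. Of all genes tested, 38.6% had averages above 0, 41.6% had averages below 0 and 19.7% were high in both strains. Of 138 cytosolic ribosomal protein genes, 83 had averages above 0 and 26 below, and 68 were high in both strains, with a median of 0.14. RPS18A reached 0.73, while RPL10 (-0.45) and RPS30A (-0.38) were on the low side. Of 73 genes of ribosome assembly, 55 had averages above 0 and 7 below, with a median of 0.35 in BY4716 and 0.05 in RM11-1a. NHP2 and NOP1, proteins of the particles that modify ribosomal RNA, averaged 0.64 and 0.60, whereas UTP8 was at -0.20 and, with median centring, no longer passed. Of 31 genes of RNA polymerases I and III, 22 were above 0 and 6 below, but the median was 0.27 in BY4716 and -0.016 in RM11-1a, and 7 were high in BY4716 and low in RM11-1a. RPA49, a subunit of polymerase I, averaged 0.49. Translation factors were nearer to the shares of all genes, with 19 above (51.4%) and 13 below (35.1%). Among them were TIF5, an initiation factor, at 0.62 and TEF2, one of a pair of identical elongation factor genes, at -0.65. Of 19 aminoacyl-tRNA synthetase genes, 9 (47.4%) were above and 4 (21.1%) below, with a median of 0.23 in BY4716 and -0.16 in RM11-1a. Of these, 3 were high in both strains and 7 high in BY4716 and low in RM11-1a. These groups moved with the normalization as well: with median centring the median became 0.78 for cytosolic ribosomal proteins, 0.39 for ribosome assembly and 0.52 for translation factors, and TEF2 and RPL10 changed sign, to 0.53 and 0.56.

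**Figure D4:**
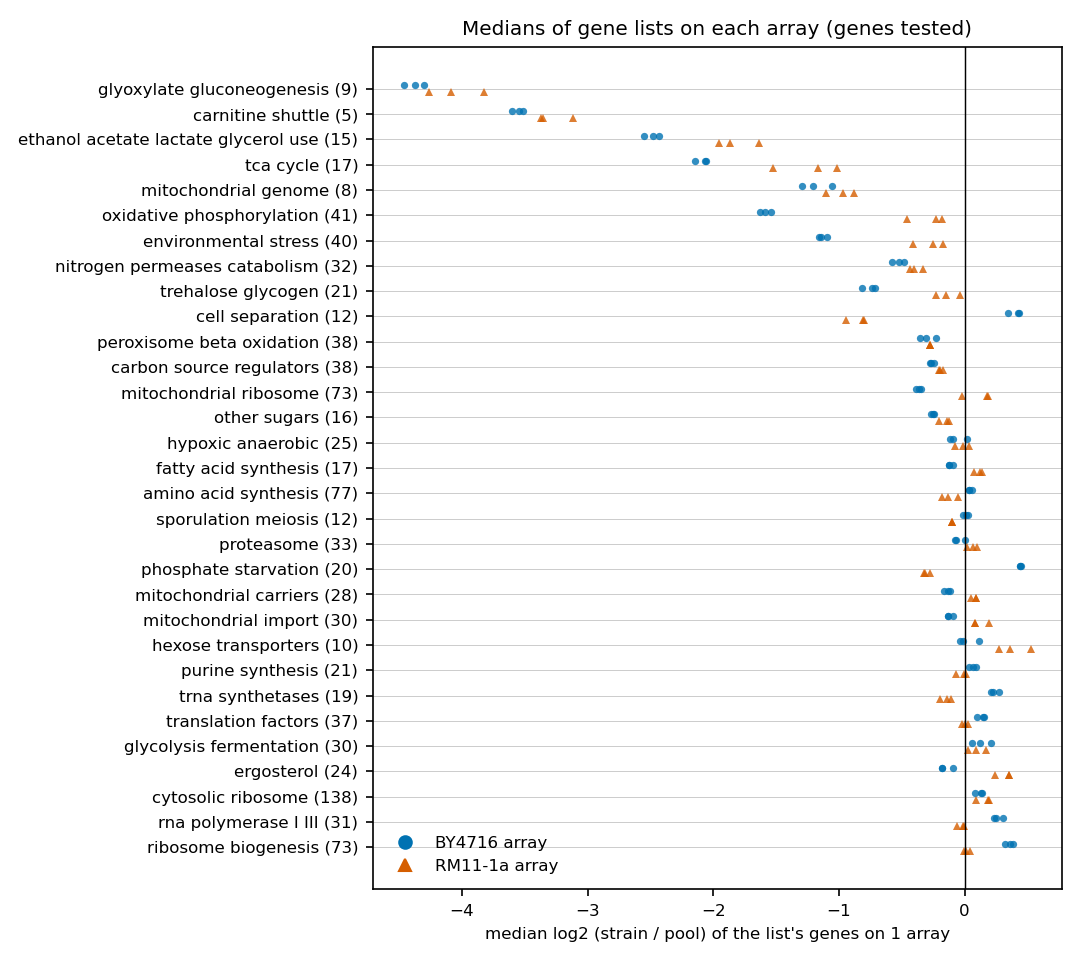
Median log2 ratio over the pool of each gene list on each of 6 arrays, with circles for BY4716, triangles for RM11-1a and the number of genes tested in brackets. The glyoxylate list has the lowest medians in both strains, at -4.37 in BY4716 and -4.03 in RM11-1a, and among the lists with medians below 0 in both strains that of oxidative phosphorylation differs most between them, at -1.58 and -0.29.

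Stress and storage genes were lower than the pool, chiefly in BY4716. Of 40 genes of the general stress response, 36 had averages below 0 and 1 above (GRX1, at 0.13), with a median of -1.14 in BY4716 and -0.28 in RM11-1a. HSP12, a small protein that stabilises membranes, was at -4.24, -4.12 and -4.77 in BY4716 and at -2.13, -1.26 and -1.26 in RM11-1a. Array 7 again lay lowest in RM11-1a, as it did for 32 of these 40 genes. TMA10 averaged -3.06, the peroxisomal catalase CTA1 -2.83 and GRE1 -2.80. CTT1, the cytosolic catalase, was at -3.77 ± 0.11 in BY4716 and -0.28 ± 0.68 (SD, n = 3 each) in RM11-1a, where it did not pass. Of 21 genes of trehalose and glycogen, 18 had averages below 0 and 2 above. GAC1, which targets a phosphatase to glycogen synthase, averaged -1.26, GDB1, the debranching enzyme, -1.23, GPH1, the glycogen phosphorylase, -0.98 and TSL1, a subunit of trehalose synthase, -0.71. GAC1 was not well above background on any array of BY4716, so its level there was at least 3.16-fold below the pool.

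Nitrogen genes followed in part. Of 32 permeases and catabolic enzymes for nitrogen sources, 24 had averages below 0 and 4 above, with a median of -0.52. PUT4, the proline permease, averaged -2.83, PTR2, a peptide transporter, -2.06 and MEP2, an ammonium permease, -2.01. GDH2, the glutamate dehydrogenase that releases ammonium, was at -2.43 in each strain. GDH3, a dehydrogenase that makes glutamate with NADPH, was at -4.30, -4.17 and -4.16 in BY4716 and at -3.97, -4.17 and -4.52 in RM11-1a. It was the lowest of 77 genes of amino acid synthesis, a list with 33 averages below 0, 30 above and a median of -0.01, which became 0.44 with median centring. CPA1, a subunit of the arginine-specific carbamoyl phosphate synthetase, averaged -1.50, and the serine pathway genes SER3 and SER2 were at 0.77 and 0.63.

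All 8 genes tested of the mitochondrial genome had averages below 0, with a median of -1.04, and 7 were low in both strains. OLI1 and ATP8, subunits of the ATP synthase, differed in opposite directions: OLI1 was at -3.12 in BY4716 and -1.56 in RM11-1a, ATP8 at -1.65 and -3.05. ATP6 was not well above background on any array of RM11-1a and stood at least 3.1-fold below the pool there. Of 73 nuclear genes for mitochondrial ribosomal proteins, 43 had averages below 0, but 22 were low in BY4716 and high in RM11-1a, and the medians were -0.36 and 0.095. The median average of these genes, -0.13, became 0.009 with median centring. Carriers were even, with 12 averages below (42.9%) and 11 above (39.3%), near the 41.6% and 38.6% of all genes. Protein import had 10 below (33.3%) and 11 above (36.7%), but the strains differed. Of its 30 genes, 9 were low in BY4716 and high in RM11-1a, against 8.08% of all genes, and its medians were -0.12 and 0.11. MPC3, a pyruvate carrier subunit of respiring cells, averaged -2.68, while its fermentative counterpart MPC2 was at 0.22. Without RM11-1a array 7 the median averages were -1.57 for the citric acid cycle, -0.88 for oxidative phosphorylation, -0.095 for mitochondrial ribosomal proteins and -0.73 for stress genes.

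Pairs of related genes were set side by side on the same arrays. Of 26 listed pairs, 25 were tested on the filtered genes, and in 13 the second gene, named for use on non-fermentable carbon or as the minor form, was lower than the first on all 6 arrays. ADH1, the fermentative alcohol dehydrogenase, was at 0.17 ± 0.05 (SE, n = 6) against -5.48 for ADH2, a difference of 5.65 that ran from 5.29 to 6.32 over the arrays. The second gene also lay far below the first for HXT3 and HXT5 (4.95), IDP1 and IDP2 (3.78), ACS2 and ACS1 (3.67), PDC1 and PDC6 (2.98) and MPC2 and MPC3 (2.91). In the pentose phosphate pathway, TAL1 lay above NQM1 by 2.59, TKL1 above TKL2 by 2.37 and GND1 above GND2 by 1.73. ACS2, the acetyl-CoA synthetase that yeast cannot do without on glucose, was itself below the pool, at -1.16 ± 0.03. In 4 pairs the second gene was higher on all 6 arrays, and in PET9 and AAC3 it was higher on the 3 arrays that measured both. The 4 pairs were CYC1 and CYC7, SDH3 and SHH3, HYP2 and ANB1, and TDH3 and TDH1. The order of HYP2 and ANB1 turned with median centring (0.18, first minus second), and that of SDH3 and SHH3 with the deposited ratios (1.48), SHH3 being well above background on only 1 of 6 arrays. AAC3, the ATP carrier of oxygen-poor growth, averaged 0.61, and ANB1, the translation factor copy of oxygen-poor growth, -0.09. CDC19 and PYK2, the pyruvate kinase genes, did not separate by loess, at 0.17 each, but with median centring CDC19 lay above PYK2 by 0.87. ADH1 and ADH2, the enolase genes and the TDH genes are close in sequence, and how far their probes share signal was not tested.

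**Figure D5:**
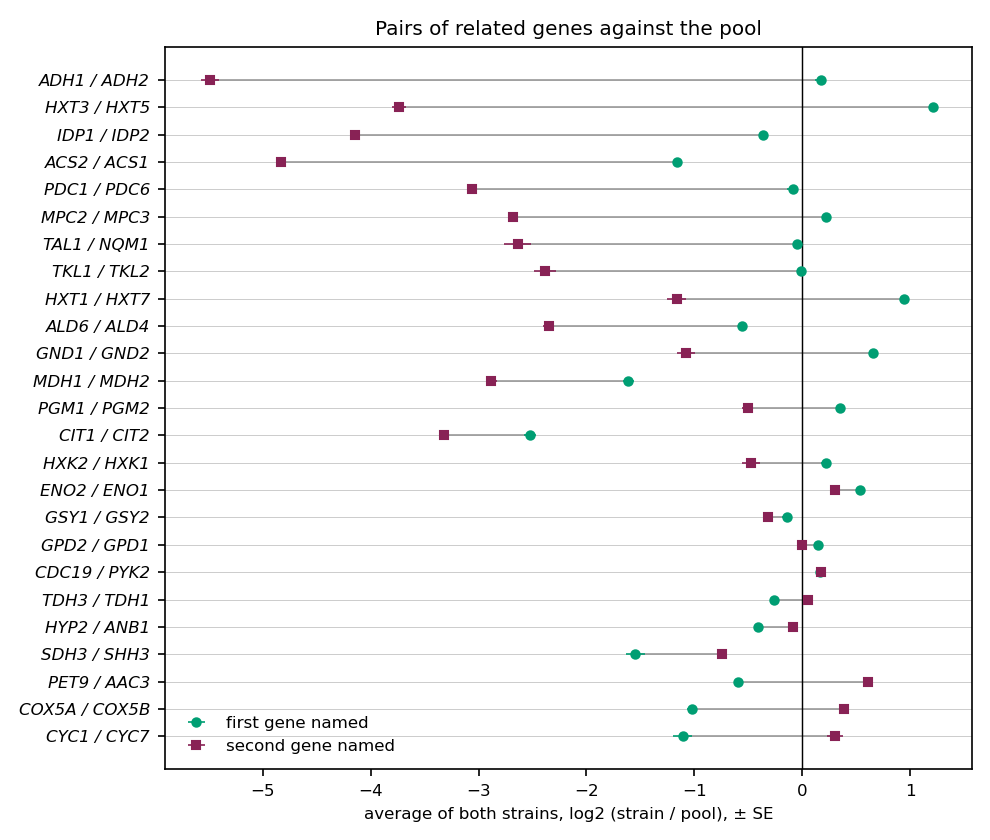
Average log2 ratio over the pool of both genes of 25 related pairs, with SE over 6 arrays, circles for the first gene named and squares for the second. ADH1 and ADH2 stand farthest apart, and PET9 rests on 3 arrays because its spots on the others were outliers.

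The strains themselves differed at 3670 genes (63.5%). Of the 1289 genes low in both, 751 also differed between the strains, with 520 higher in RM11-1a, and of the 1140 high in both, 478 differed, with 287 lower in RM11-1a. Among the 122 at least 2-fold low, 89 differed and 75 of these were higher in RM11-1a. The split by direction over all 3670 genes is not given here, so these counts show no tilt particular to the low or the high genes. A further 970 genes (16.8%) were below the pool in one strain and above it in the other, 467 (8.08%) low in BY4716 and high in RM11-1a and 503 (8.71%) the reverse. INO1, which makes inositol phosphate, was at -3.39, -3.66 and -3.68 in BY4716 and at 1.16, 1.17 and 1.35 in RM11-1a. For such genes the average says little about the carbon source. Genes of daughter cell separation behaved alike, with 9 of 12 high in BY4716 and low in RM11-1a, among them DSE1 (0.74 and -2.35) and the chitinase CTS1 (0.80 and -2.11). So did phosphate genes, with 13 of 20 in that class, such as VTC3, a polyphosphate polymerase subunit (0.87 and -0.20).

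Strain marker and mating-type genes, far apart between the parents in most cases, show what the average leaves in. A low value was not always an absence of signal. LYS2 and STE2 in BY4716 and SAG1 in RM11-1a were well above background on all 3 arrays, whereas LEU2 in RM11-1a was so on none. LYS2 was at -3.15 ± 0.14 in BY4716 and 0.96 ± 0.04 in RM11-1a, and URA3 at 1.38 ± 0.03 and -2.49 ± 0.12 (SD, n = 3 each). Over 15 marker and mating-type genes, the strain with the higher level stood between 0.27 and 1.82, with a median of 1.24. A pool of 4 equal RNAs would give 1 for a gene of a single strain at the same level on both carbon sources. Most of the 15 genes lay above that value, and why they did was not tested. The averages of these genes ran from -1.67 to 0.21, with 9 below 0 and 6 above. All 9 of those below 0 were above it when the ratios were averaged on the linear scale. LYS2 had a log2 average of -1.10, whereas the log2 of its mean linear ratio was 0.04. The requirement that both strains pass with the same sign keeps genes with the strains on opposite sides out of those called low in both.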

How the data were processed

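Per the file headers, Agilent Feature Extraction 8.5.1.1 made the spot values of the 6 arrays, which have 2 colours. As deposited, a scanner file gives for every spot the intensity and local background of both dyes, beside a log10 ratio of Cy5 over Cy3. The deposited value table holds log2 ratios, which equalled the scanner's within 5e-04 with column medians between 0 and 0.008, so scale and direction are known.

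Mean signals were corrected in limma 3.58.1 (R 4.3.3) by normexp with 50 added as an offset, which draws ratios toward 0, then normalized by loess within each array with control spots at weight 0. Spots flagged as outliers, 54 to 97 per array, were left out and spots of a gene averaged. The array held 6256 genes, 1 probe each. Sequence differences of RM11-1a under the probes were not analysed here. Genes needed a signal well above background, in the strain or the pool, on 3 or more of the 6 arrays. The R64 annotation supplied symbols for 5519 of 5777 genes. A gene too dim to measure on every array of a strain has a lower bound for its fold there, written "at least".

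The model had a mean per strain and 4 residual degrees of freedom, fitted with lmFit and eBayes to the 6 arrays. Lists are described by counts and medians without a test. Genes were named by a rule that took the 14 lowest and 14 highest in both strains, up to 4 called genes of each list in the direction of its median and 2 in the other, the genes of the pairs, a set of carbon genes, and the largest strain differences. AGX1, GUT1, CYB2 and ALD3 were chosen after their values were seen. Some list members and a pair of genes are not reported here. The members, lists and tests were chosen with earlier results of these data known. Replicate numbers did not pair the arrays, since deviations of arrays with the same number correlated at -0.21, 0.14 and -0.18. The arrays were scanned on 4 days, 1 of which held an array of each strain, and 2 arrays of BY4716 shared a slide. The calculations were tested on simulated data.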

Additional observations from a re-analysis of the deposited data

Results flagged for a closer look

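The genes below stood out because the strains differed from the pool in different ways, by the test of RM11-1a minus BY4716. Differences are log2, and each had an adjusted p under 0.05 in limma.

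Of the genes on opposite sides of the pool, the hexose carriers HXT7 (3.52) and HXT6 (3.5) were higher in RM11-1a, as were INO1 (4.81) and HMX1, which encodes heme oxygenase (3.36). HXT6 and HXT7 are near-identical copies. All 4 annotated copies of the cell wall asparaginase gene ASP3 were higher in BY4716, at -5.47 for ASP3-1, -5.46 for ASP3-2, -5.54 for ASP3-3 and -5.53 for ASP3-4. Their probes may read the same transcripts, so they count as 1 observation. In BY4716 the copies lay between 0.38 and 0.40, and in RM11-1a between -5.16 and -5.06.

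Of the genes low in both strains, 5 were nearer to the pool in RM11-1a. These were HSP12 (2.83), TMA10 (2.60), MSC1 (2.5), the proline permease PUT4 (2.65) and YBR116C (2.95), a reading frame that the annotation used here does not list. AI5_ALPHA, a gene within an intron of the mitochondrial COX1, was lower in RM11-1a (-3.04), where it was not well above background on any array and stood at least 9.65-fold below the pool. The RM11-1a arrays were spread widely for HSP12 (SD 0.50), YBR116C (SD 0.56) and HMX1 (SD 0.58), with array 7 the farthest from the other 2 in each.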

How the results depend on the processing

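Counts of genes past the threshold stayed within 1.5 times of those reported under no background correction, both filters, the fit of all 9 arrays, the intensity trend, scan day as a random block and each array left out. Exceptions came from the offset, the normalization and the deposited ratios. Genes at least 1.5-fold high in both, 20 as reported, were 66 with an offset of 0, 263 with median centring and 101 with the deposited ratios. Genes high in both rose to 1791 with median centring, and genes at least 2-fold low in both to 186 with the deposited ratios, which are drawn less toward 0 because no offset is added. Of the deposited ratios' calls, 1062 of the genes low in both and 1125 of those high in both were shared.

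Of the genes named in the text, these averages changed sign with median centring: PDC1 1.049, TKL1 0.795, TAL1 0.631, RPL10 0.555, TEF2 0.531, TDH3 0.429, HYP2 0.418, IDP1 0.26, ANB1 0.238, PET9 0.169, ERG3 0.001 and DCI1 -0.08. With the mean of linear ratios those that did were URA3 0.473, INO1 0.278 and LYS2 0.042. The cause was not tested beyond these settings. The sign of 28 of the 32 list medians held with median centring, and 29 held on the shared scan day alone, where the largest shift of a list median was 0.097.

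Arrays share only a number across strains. The fit with the replicate block gave 1232 genes low in both and 1058 high in both, and of the calls described it changed that of PDC1, which then passed at -0.09. How far the effects of these settings depend on the brightness of a gene was not tested.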

Other observations

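The 3 arrays of strains with an exchanged allele were set against a pool of the same description, and their values can be read beside those of the parents, 1 array each and with no test. Their labels disagree on which dye held the strain, and the values are given with the strain as Cy5. None shared a scan day or a slide with the parental arrays, and at least 1 was read with another version of Feature Extraction, 9.1.3.1. Differences between strains and between runs therefore cannot be told apart. On the array of YAD350 MLS1 stood at -7.10, on that of YLK804 at -7.37 and on that of YLK806 at -6.85. ADH2 was at -5.58, -6.01 and -5.20 in the same order. Both lay within or close to the range of the parental arrays. HXT3 was at 0.92, 0.77 and 0.84, below the lowest parental array at 1.14, and RPL20A was at 0.28, 0.28 and 0.34, below the lowest parental array at 0.84. Of the mitochondrial genes, ATP8 stood at 0.14, 0.06 and -0.78, again in that order, against averages of -1.65 in BY4716 and -3.05 in RM11-1a.

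Genes of ergosterol synthesis, not described above, had 14 averages above 0 and 8 below among 24, with 10 low in BY4716 and high in RM11-1a. ERG2, a sterol isomerase, was at 0.12 in BY4716 and 0.55 in RM11-1a, and ERG3, a sterol desaturase, at -1.0 and -0.32. Proteasome genes had even averages, with 10 below 0 (30.3%) and 11 above (33.3%) among 33, and 5 were low in BY4716 and high in RM11-1a.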
